A study of Mus musculus with 4 samples.

Results

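The genes described here encode proteins of the central pair apparatus of the sperm flagellum, and their RNA was measured in testes of Rfx2 mutant and control mice. A fixed list of 8 gene symbols was used, Hydin, Spef1, Spef2, Spag6, Spag16, Spag17, Pcdp1 and Kif9, and values of entries that share a symbol were summed. Of these, 7 were found among the 22311 symbols of the series. Pcdp1 does not appear under that symbol. RefSeq gives Pcdp1 and Gm101 as older names of the same gene, Cfap221, so the values listed as Gm101 are reported beside the 7 and are left out of their counts.

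The mutants, called mutant 1 and mutant 2, were homozygous Rfx2-/- mice, and control 1 and control 2 carried at least 1 intact allele. Sample labels call the controls wild type, whereas the methods of the study describe heterozygous animals. The strain is given as DBA in the labels and as mixed in the methods. The allele is a constitutive knockout from a single embryonic stem cell clone, in which a neomycin-resistance cassette takes the place of exons for the DNA-binding domain. All 4 samples were RNA of whole testes from males at 24 days of age, with no other treatment named, and the study describes the 2 samples of each genotype as independent. This age was compared because round spermatids detach from the mutant tubules afterwards. Shortly before this age, the study also reports delayed spermatogenesis with fewer round spermatids in some mutants, and more apoptotic cells in mutants. The comparison asks which genes depend on RFX2, a transcription factor that binds the X-box motif.

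Motile cilia and sperm flagella are built around a ring of doublet microtubules, and a pair of single microtubules runs along the centre. Proteins of the central pair form projections on these microtubules, and radial spokes pass signals from the projections to the dynein motors of the outer doublets, which sets the waveform and beat. In the testis these proteins are made by late spermatocytes and spermatids while the flagellum grows, and loss of several of them in mice leads to immotile sperm or to flagella that lack the pair.

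The X-box is an imperfect inverted repeat with a short gap between its arms. Because RFX2 binds this motif, the best match in the promoter of each member was searched on both strands, with a gap of 0 to 3 bases, from 250 bases before to 50 bases after the RefSeq start site in GRCm38.p6. Each sequence is written 5′ to 3′ on the strand of the gene with 7 bases on either side, and capitals mark the match. The promoters of Hydin, Spef2, Spag16 and Kif9 held a match with no mismatch at the 11 constrained positions:
Hydin: ctctgcgGTTGCTGTGGCAACagatggt
Spef2: gcaactgGTTGCCCTGGGCGACgggaaga
Spag16: gcaacgcGTTGCCGTAGTAACtgcggac
Kif9: gcttcctGTTGCCATGGCGACtgtgtac
The other 4 held a match with 1 mismatch:
Spef1: agcgacgGTTGCTATGGTTTCggaaaac
Spag6: gtatccgGTTGCTGTCGGTTGCcctggag
Spag17: ggtctcgGTTACCAAGGCCTCagagacg
Pcdp1: cgtccgcGTTGTCATGGCGACgctgtga
In GRCm38.p6 these stretches lie at chr8:110266949-110266976 on the plus strand (Hydin), chr15:9748839-9748867 on the minus strand (Spef2), chr1:69826860-69826887 on the plus strand (Spag16), chr9:110476960-110476987 on the plus strand (Kif9), chr2:131174826-131174853 on the minus strand (Spef1), chr16:16829318-16829346 on the minus strand (Spag6), chr3:99885411-99885438 on the plus strand (Spag17) and chr1:119997220-119997247 on the minus strand (Pcdp1).

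A match without mismatch was found in 1.53% of all 32851 promoter windows, a match with at most 1 mismatch in 11.3%, and with at most 2 mismatches in 64.2%. The half-site GTTGCC, which on either strand can be an arm of the X-box, was present in 5 of the 8 members and in 12.5% of all windows. Within 1000 bases of annotated start sites in mm9, a match without mismatch lay near the same 4 members and near 4.60% of the 12620 tested genes that had a start site. Members with a perfect match included Spef2, whose RNA fell in the mutants, and also Hydin, Spag16 and Kif9, whose RNA did not pass the test described below. Spag17, which fell, held only a match with 1 mismatch. A match is a description of letters in this window, and binding was not measured in these data.

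**Figure D1:**
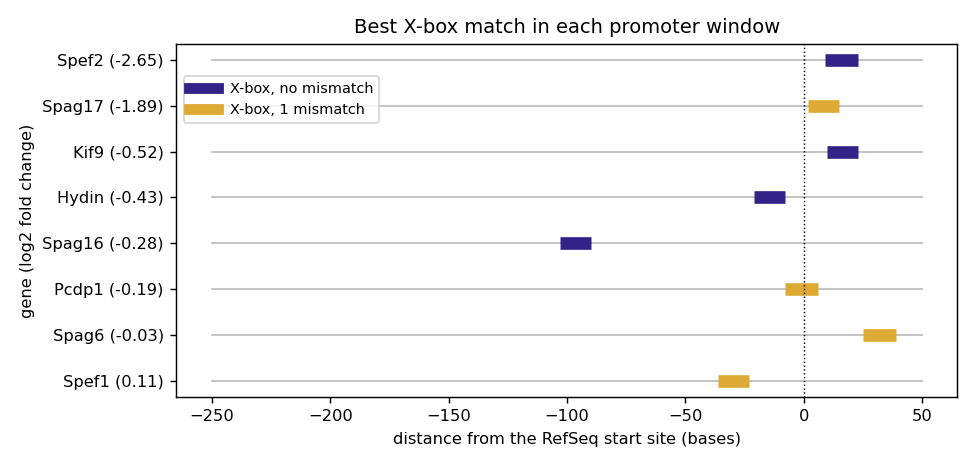
Position of the best X-box match in the promoter window of each member, in bases from the RefSeq start site (0, dotted line). Each row is a gene ordered by its log2 fold change (in parentheses, mutant minus control), grey lines are the windows searched, and colours give the mismatches. Matches lay between -103 and 39, and those with no mismatch occur at log2 fold changes from -2.65 to -0.28.

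The deposited confidence bounds correspond to 17.1 to 20.3 M fragments per sample, summed over symbols with a single entry. This is not the sequencing depth, for which the study states a larger number of reads in each sample. Rfx2 itself had an FPKM (fragments scaled to transcript length and to the mapped fragments of the sample) of 36.7 in mutant 1, 39.8 in mutant 2, 123 in control 1 and 89.4 in control 2. The mutants had 36.0% of the control mean (log2 fold change -1.43, adjusted p = 0.00617 from limma), and this value for the whole gene also counts the exons that the mutant allele keeps. The call was lost with no filter (adjusted p = 0.0607), with median-ratio scaling (0.0829), with scaling to round spermatid markers (0.906) and without control 1 (0.0628). Mutant 1 stood apart from the other samples, as in 8 markers of elongating spermatids. Their summed FPKM was 1164 in mutant 1, 6130 in mutant 2, 7651 in control 1 and 5202 in control 2. The study found no elongating spermatids in mutant testes at later ages, so these sums describe RNA and do not count such cells. Markers of round spermatids summed to 544 in mutant 1 and to between 693 and 929 in the other samples. Markers of pachytene spermatocytes summed to between 3113 and 3596 in all 4, and Ldhc, at 2155 to 2602, made up the largest part. The 8 round spermatid, 8 elongating spermatid and 8 pachytene markers were all detected, and none passed the test between genotypes. Results are therefore also given without mutant 1.

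In control testes the members spanned a wide range of levels on the FPKM scale, which is per length. Spag6 was the highest at 147 to 162, followed by Kif9 at 98.0 to 125 and Spag16 at 73.7 to 101. The ranges of Kif9 and Spag16 overlapped, so their order is not set by these samples. Spag17 came next at 44.8 to 47.6, then Spef1 at 14.1 to 17.0 and Hydin at 10.7 to 11.8. The lowest were Pcdp1 (Gm101) at 9.80 to 9.84 and Spef2 at 6.27 to 7.0. In the mutants Spag6, Kif9 and Spag16 stayed the 3 most abundant, while Spag17 lay below Spef1 in both samples. The ranges of Hydin and Pcdp1 overlapped in the mutants.

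**Figure D2:**
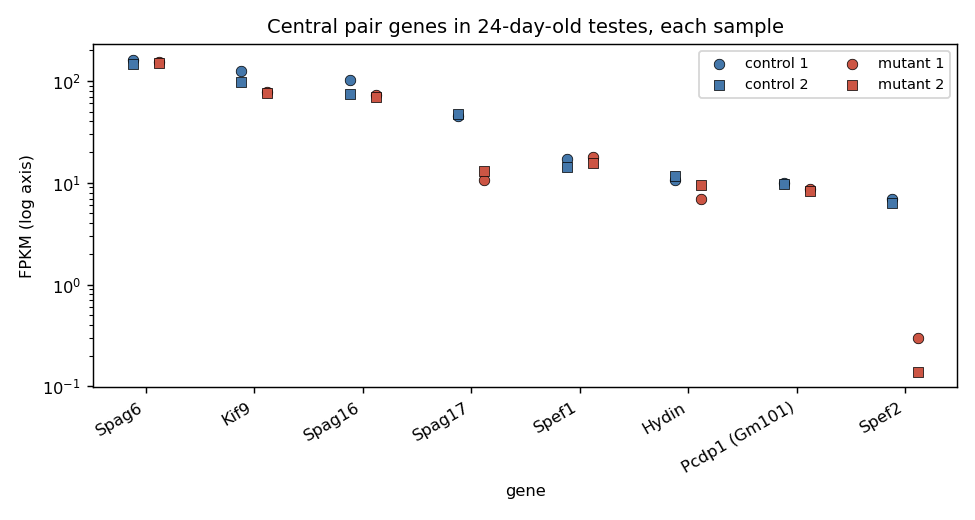
FPKM (log axis) of the 7 members and of Pcdp1, listed as Gm101, with a point for each of the 2 control (blue) and 2 mutant (red) samples. Spef2 lies at 0.139 and 0.297 in the mutants against 6.27 and 7.0 in the controls, Spag17 at 10.6 and 13.0 against 44.8 and 47.6, and the points of Spag6 and Spef1 overlap between genotypes.

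The genotypes were compared by a two-sided limma test on log2(FPKM + 1), fitted to the 12985 genes that reached an FPKM of 1 in 2 or more samples. All 7 members passed this filter, but Spef2 did so only through the controls, the group where it was high. Spef2 and Spag17 were lower in the mutants at an adjusted p under 0.05 and no member was higher. Over all genes tested, 2.52% were called lower and 0.308% were called higher. For 5 of the 7 members each mutant sample was lower than each control, against 15.2% of all genes tested, and for no member was each mutant higher than each control, against 16.3%. The median log2 fold change was -0.43 over the members and 0.03 over all genes tested. RNA came from whole testes, so fewer cells of a type and less RNA per cell cannot be told apart.

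Spef2 changed most. The gene encodes a large protein of a projection of the C1 microtubule, is required for sperm tail development, and lies on chr15:9507948-9678623 on the minus strand of mm9. Its FPKM was 7.0 in control 1, 6.27 in control 2, 0.297 in mutant 1 and 0.139 in mutant 2. Both mutant samples lay far below both controls, at 3.29% of the control mean. The deposited confidence bounds correspond to about 25 and 10 fragments in the mutants and to 563 and 534 in the controls, so the mutant levels are imprecise while the gap between genotypes is wide. The log2 fold change was -2.65 (SE 0.21, 95% interval -3.13 to -2.17), with an adjusted p of 0.000327 from limma with Benjamini-Hochberg adjustment. The added 1 shrinks this value because the mutant levels are under 1. The log2 ratio of the mean FPKM without it was -4.93. Spef2 reached an FPKM of 1, the filter of the test, only in the controls. With a filter at FPKM 0.1, which it reached in every sample, its adjusted p was 0.000601 from limma. Without mutant 1 the log2 fold change was -2.74.

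Spag17 also fell. It encodes the counterpart of the PF6 protein of Chlamydomonas, a scaffold of the C1a projection, and lies on chr3:99689329-99947245 on the plus strand of mm9. Its FPKM was 44.8 in control 1, 47.6 in control 2, 10.6 in mutant 1 and 13.0 in mutant 2. Both mutant samples lay well below both controls, at 25.6% of the control mean. The log2 fold change was -1.89 (SE 0.18, 95% interval -2.29 to -1.48) with an adjusted p of 0.000939 from limma. It was -2.02 with mutant 1 alone and -1.75 with mutant 2 alone. With each sample scaled to its round spermatid markers it was -1.56 and the call was lost (adjusted p = 0.721). Exons of Spag17 overlap those of Wdr3 on the opposite strand, and the libraries are not described as stranded. Wdr3 had an FPKM of 4.70 to 7.08 with overlapping genotypes, which is low beside Spag17 in the controls but less so in the mutants. The part of Wdr3 reads in the Spag17 values was not tested.

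Of the members that did not pass the test, 3 lay lower in both mutants than in both controls. Kif9, a kinesin of the central apparatus, had an FPKM of 77.1 in mutant 1, 76.8 in mutant 2, 125 in control 1 and 98.0 in control 2. Its change of -0.52 in log2 (SE 0.18, 95% interval -0.93 to -0.11) was nearly equal in each mutant, at -0.51 and -0.52, and its adjusted p was 0.328. Control 1 was further above the mutants than control 2. Kif9 (chr9:110379462-110427683, mm9, plus strand) starts 264 bases from Klhl18, which is read in the other direction. Klhl18 lay at 7.90 and 7.61 in the mutants and at 5.47 and 5.53 in the controls, with an adjusted p of 0.672.

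Hydin, a giant protein of a C2 projection whose loss causes hydrocephalus in mice, had an FPKM of 6.85 in mutant 1, 9.43 in mutant 2, 10.7 in control 1 and 11.8 in control 2. The lower value came mostly from mutant 1, at -0.64 on the log2 scale against -0.23 in mutant 2. The log2 fold change was -0.43 (SE 0.22, 95% interval -0.94 to 0.08) with an adjusted p of 0.763. Spag16, the WD-repeat protein of the bridge between the microtubules, had an FPKM of 72.8 in mutant 1, 68.9 in mutant 2, 101 in control 1 and 73.7 in control 2. Control 2 was close to both mutants, and only control 1 stood above. Its change was -0.28 in log2 (SE 0.19, 95% interval -0.73 to 0.16) with an adjusted p of 1.0. Hydin lies on chr8:112790877-113134153 and Spag16 on chr1:69873562-70771706, both on the plus strand of mm9.

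Pcdp1, a partner of calmodulin in the C1d projection, had an FPKM under Gm101 of 8.63 in mutant 1, 8.35 in mutant 2, 9.84 in control 1 and 9.80 in control 2. The samples of each genotype were close together and the mutants lay at 86.5% of the control mean. For this gene the log2 fold change was -0.19 (SE 0.19, 95% interval -0.63 to 0.25) with an adjusted p of 1.0. The gene lies on chr1:121819918-121893811 on the minus strand of mm9.

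Spag6 and Spef1 overlapped between genotypes. Spag6, an armadillo-repeat protein of the C1 microtubule, had an FPKM of 152 in mutant 1, 149 in mutant 2, 162 in control 1 and 147 in control 2. Control 2 was the lowest of the 4 samples. The log2 fold change was -0.03 (SE 0.17) and its 95% interval of -0.42 to 0.35 excludes a fall of the size seen in Spag17. Spef1, a microtubule-binding protein with a calponin-homology domain, had an FPKM of 18.0 in mutant 1, 15.6 in mutant 2, 17.0 in control 1 and 14.1 in control 2. The mutant and control samples alternated, and the log2 fold change was 0.11 (SE 0.19, 95% interval -0.33 to 0.54). The adjusted p of both genes was 1.0.

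The value of Spag6 (chr16:16753109-16829549, mm9, minus strand) could hold reads of a close copy. BC061194 (chr2:18620628-18672040, mm9, plus strand) is the paralog that RefSeq now names Spag6, while the gene listed here as Spag6 is now Spag6l. The coding sequences are 88.3% identical and share a run of 65 bases, so some reads may have been split between them. Of the 1475 stretches of 50 bases in the Spag6 coding sequence, only 18 also occur in that of BC061194. BC061194 had an FPKM of 58.9 in mutant 1, 89.0 in mutant 2, 83.0 in control 1 and 67.1 in control 2, with overlapping genotypes. Spef1 (chr2:130995997-131013018, mm9, minus strand) shares exonic positions with Cenpb on the same strand, which had an FPKM of 9.76 to 12.3.

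The members therefore did not keep their proportions. Relative to Spag6 in the same sample, Spag17 stood at 0.276 in control 1, 0.325 in control 2, 0.0698 in mutant 1 and 0.0876 in mutant 2. The ratio of Spef2 to Spef1 was 0.412 in control 1, 0.443 in control 2, 0.0165 in mutant 1 and 0.00894 in mutant 2. In both cases the mutants lay below the controls with a wide gap, and such a ratio within a sample does not depend on its scaling. In these pairs a member called lower is set against a member whose genotypes overlapped, so the gaps follow from the fold changes above. The ratio of Spag16 to Spag6 was 0.479 in mutant 1, 0.462 in mutant 2, 0.624 in control 1 and 0.503 in control 2. Here mutant 1 and control 2 were close. The summed FPKM of the 7 members was 337, 333, 467 and 398 in the same order of samples, and Spag6 made up the largest part of each sum.

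Of 11 other genes of the central apparatus, all were found and 10 were tested. Cfap70 and Cfap46 were lower in the mutants and none was higher, and in 8 of the 11 both mutants lay below both controls. The 8 include Cfap47, which was not tested. The median log2 fold change was -0.47. Over all genes tested, 2.52% were called lower and 0.308% higher, and in 15.2% both mutants lay below both controls. Cfap70, a tetratricopeptide-repeat protein listed as Ttc18, had an FPKM of 3.65 in mutant 1, 5.08 in mutant 2, 60.0 in control 1 and 60.5 in control 2. It fell to 7.25% of the control mean, with a log2 fold change of -3.52 (SE 0.20, adjusted p = 5.12e-05 from limma). Cfap46, listed as E030019B06Rik and a partner of Pcdp1 in the C1d projection, had an FPKM of 3.92 in mutant 1, 3.55 in mutant 2, 23.1 in control 1 and 23.0 in control 2. On the log2 scale it fell by 2.35 (SE 0.19, adjusted p = 0.000414 from limma). Both genes were far below the controls in each mutant, and both passed the threshold without mutant 1. With scaling to round spermatid markers Cfap70 passed (adjusted p = 0.000193) and Cfap46 did not (-2.03, adjusted p = 0.242).

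Other proteins of the same C1d projection did not pass. Wdr93 had an FPKM of 23.1 and 22.6 in the mutants against 37.7 and 35.9 in the controls, with a log2 fold change of -0.66 and an adjusted p of 0.0906. Cfap54, listed as Gm872, was near the filter, at 1.07 and 0.761 in the mutants and 1.76 and 2.35 in the controls, with an adjusted p of 0.244. Cfap74, listed as 2010015L04Rik, had a log2 fold change of -0.15. In this projection, then, Cfap46 passed and Pcdp1, Wdr93, Cfap54 and Cfap74 did not, and whether these genes differ from each other was not tested.

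Mycbpap, which binds the MYC-binding protein, had an FPKM of 29.7 in mutant 1, 40.5 in mutant 2, 61.2 in control 1 and 60.1 in control 2. Both mutants lay below the controls, with a log2 fold change of -0.79 (SE 0.19) and an adjusted p of 0.0917. Spata17 was lower in mutant 1 only, at 37.9 against 53.9 to 59.4 in the other 3 samples. Cfap65 (Ccdc108) and Cfap69 (A330021E22Rik), both needed for a normal sperm tail, had log2 fold changes of -0.08 and -0.11 at an FPKM above 60. Cfap47 (Gm7173) stayed at or under 0.753 in every sample and was not tested.

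Among 2 genes needed to form or keep the central pair, Ulk4 was lower in the mutants. It encodes a kinase-like protein, and its FPKM was 33.6 in mutant 1, 36.5 in mutant 2, 85.5 in control 1 and 68.8 in control 2. The mutants lay below the controls, with a log2 fold change of -1.11 (SE 0.17, adjusted p = 0.0137 from limma). This call was lost without control 1 (adjusted p = 0.160), with no filter (0.0696), with median-ratio scaling (0.110) and with scaling to round spermatid markers (0.906). Stk36, a kinase that acts with Ulk4, had a log2 fold change of 0.12, with mutant 2 the highest sample at 49.4.

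None of 3 binding partners of members passed the test. Meig1, which binds Spag16 in the manchette, was abundant, at 705 in mutant 1, 793 in mutant 2, 987 in control 1 and 793 in control 2. Ift20, which binds Spef2, had a log2 fold change of -0.03. Tssk2, a kinase of spermatids that phosphorylates Spag16, had an FPKM of 46.6 in mutant 1 against 141, 141 and 120 in mutant 2, control 1 and control 2. Only mutant 1 was low, as it was for the elongating spermatid markers.

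**Figure D3:**
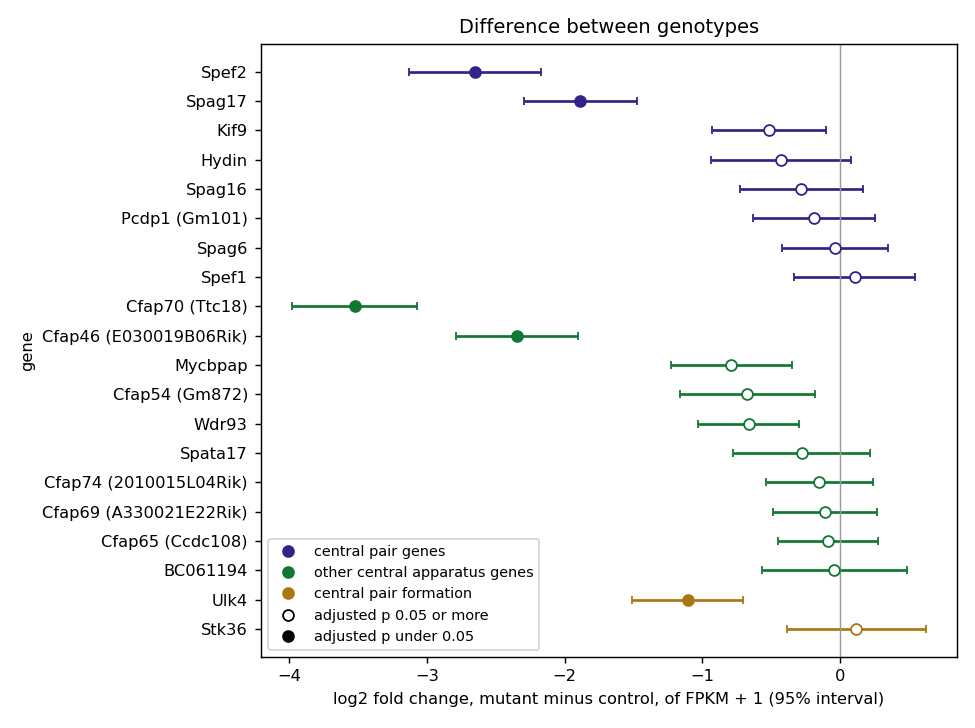
Log2 fold change of FPKM + 1, mutant minus control, with 95% intervals from limma, for the 7 members and Pcdp1 (purple), 10 other central apparatus genes (green) and 2 genes of central pair formation (brown). Filled points have an adjusted p under 0.05: Spef2 at -2.65, Spag17 at -1.89, Cfap70 at -3.52, Cfap46 at -2.35 and Ulk4 at -1.11. The calls of Spag17 and Cfap46 were lost under 1 alternative (scaling to round spermatid markers) and that of Ulk4 under 4.

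Neighbouring complexes of the axoneme give a scale for these values. Over all genes tested, 2.52% were called lower and the median log2 fold change was 0.03. Of 10 radial spoke genes in the files, 9 were tested and 3 were lower, with a median log2 fold change of -0.44 and a range from -5.41 (Rsph9) to -0.03 (Rsph3a). Of 12 genes of the nexin-dynein regulatory complex and its molecular ruler, all were tested and 7 were lower, with a median of -0.98 and a range from -5.17 (Ccdc164, now Drc1) to 0.34 (Iqca). Several of these genes were singled out by the study from the same samples, so their counts are not independent evidence of a direction. Among the members, Spef2 was singled out in the same way, and the study also reports it lower by real-time PCR. For Spag6 the study reports no difference between genotypes by RT-PCR. Differences between the lists were not tested.

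Each mutant can be read against the mean of the controls. On the log2 scale Spef2 was at -2.56 in mutant 1 and -2.74 in mutant 2, and Cfap46 at -2.29 and -2.40. Spag17, Cfap70 and Ulk4 were lower in mutant 1, at -2.02, -3.72 and -1.17, than in mutant 2, at -1.75, -3.33 and -1.05. The elongating spermatid markers had a median of -1.99 in mutant 1 and of 0.08 in mutant 2, and the round spermatid markers of -0.52 and 0.30. The 2 members called were the same without mutant 1. The median of the members without mutant 1 was -0.32. With mutant 2 alone, the log2 fold change was -0.32 for Spag16, -0.21 for Pcdp1, -0.05 for Spag6 and 0.01 for Spef1. Hydin and Spata17, in contrast, were lower mainly in mutant 1, and the part of the spermatid transcripts in any of these values was not tested.

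**Figure D4:**
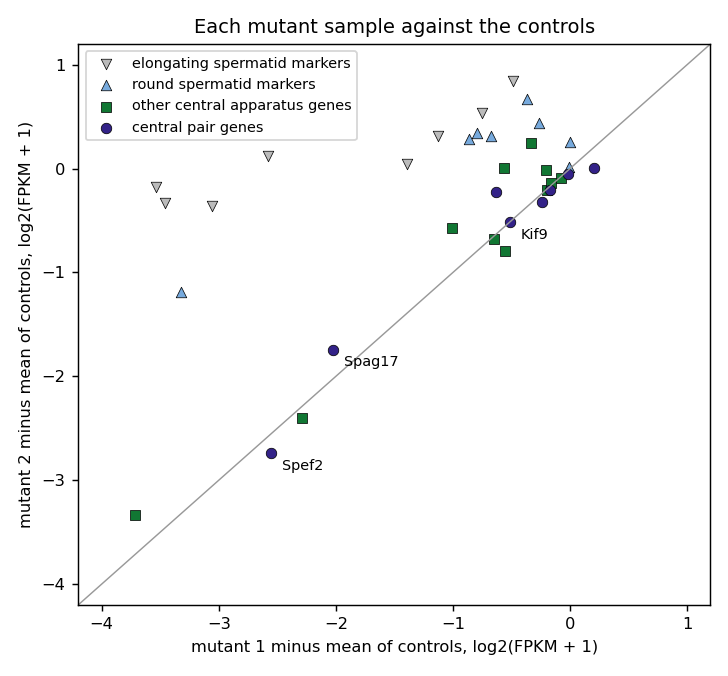
Log2(FPKM + 1) of mutant 1 (x axis) and mutant 2 (y axis) minus the mean of the controls, for members and Pcdp1 (purple circles), other central apparatus genes (green squares) and spermatid markers (triangles), with the line of equal values. Spef2, Spag17 and Kif9 lie near the line, while elongating spermatid markers lie at a median of -1.99 in mutant 1 and 0.08 in mutant 2.

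Scaling each sample to its round spermatid markers shifted the median of all genes to 0.34 and widened the spread, and Spef2 was then the only member called. Among these markers, Spata18 had an FPKM of 4.41 and 22.9 in the mutants against 55.9 and 50.8 in the controls. It changed most, by -2.26 in log2, without passing the test. The other round spermatid markers lay between -0.29 (Catsper3) and 0.15 (Spaca3). The scaling was not run without Spata18, so the share of this gene in the shift was not tested. Motile cilia also line the efferent ducts, which could adhere to a testis. Of the markers of their multiciliated cells, Mcidas and Myb were at an FPKM of at most 0.124 in every sample and Ccno reached 1.51. The summed level of the 5 markers was 36.1 in mutant 1, 54.5 in mutant 2, 89.5 in control 1 and 63.2 in control 2, mostly from Ccdc67 and Foxj1, which germ cells also express, and its part in the results was not tested. Sertoli markers summed to 680, 595, 451 and 622 and spermatogonial markers to 105, 83.3, 71.9 and 107 in the same order. Leydig markers summed to 417, 234, 368 and 134, and macrophage markers to 23.6, 16.1, 19.0 and 31.7. Clu made up the largest part of each Sertoli sum. Insl3 made up the largest part of each Leydig sum, at 326, 157, 266 and 51.5. None of the tested markers in these lists passed. Mcidas, Myb and Cd14 did not reach the filter and were not tested.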

How the data were processed

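RNA of 2 mutant and 2 control testes was sequenced on an Illumina HiSeq instrument. Per the submitters' processing notes and the study's methods, the authors aligned reads to mm9 with TopHat2 2.0.6 and deposited gene FPKM from Cufflinks, sample by sample, with confidence bounds. FPKM are scaled by the authors for gene length and depth, and no scaling between samples is stated. The authors compared genotypes with Cuffdiff, which cannot be rerun from FPKM.

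The members, the gene lists and the tests were chosen with earlier results of these data known. Named genes are Rfx2, the members and, except for 2 genes not reported here, every gene of the lists of other central apparatus, central pair formation and binding partner genes. FPKM of entries with the same symbol were summed. A pseudocount of 1 was added, genes that reached an FPKM of 1 in 2 or more of the 4 samples were kept, and log2 values were fitted with limma 3.58.1 in R 4.3.3 (eBayes with a trend, no block, Benjamini-Hochberg over all tested genes, threshold 0.05). The functions were tested on simulated data with 200 changed genes. No pairing of samples by replicate number is described, and the main fit used none. Members not found under their symbols were looked up in RefSeq synonyms. Fragments were estimated from the confidence bounds. For entries under 30 fragments they lay within 0.02 of a whole number in 77.6% to 79.2%, so they are estimates, cover counting error only, and no count test was run. Levels that rest on few fragments are imprecise. Gene positions are from the GENCODE annotation of NCBIM37 (mm9), and promoter sequences are RefSeq's in GRCm38.p6, with no coordinates moved between builds. A window was found for each of the 8 members. Rsph10b and Cfap251 and the Sertoli marker Rhox5 were not analysed here. Alternatives were other pseudocounts, filters, scalings, eBayes settings and symbol handling, a replicate block and leaving out each sample. The crossed block was chosen after seeing the data. Tables and plots used python 3.11.15, numpy 2.4.6, pandas 2.3.3, biopython 1.88 and matplotlib 3.10.9.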

Additional observations from a re-analysis of the deposited data

How the results depend on the processing

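Spef2 and Spag17 were the 2 members called lower, and no member was called higher, under every alternative run except scaling to round spermatid markers, which left 1 member (Spef2), 1 other central apparatus gene (Cfap70) and a members' median of -0.12, with 116 genes lower and 14 higher overall. The cause was not tested, and neither was the part played by Spata18, the marker that was far lower in both mutants. Robust eBayes called 4 other central apparatus genes, adding Mycbpap (adjusted p = 0.0155) and Wdr93 (0.0377), and 67 genes higher overall. Over all genes, the numbers lower and higher were 199 and 17 with no filter, 202 and 17 with a filter at FPKM 5, and 206 and 16 with median-ratio scaling. Leaving out each sample gave 167 to 948 lower, with 433 without mutant 1, 948 without mutant 2, 167 without control 1 and 213 without control 2. It gave 13 to 162 higher, with 162, 102, 17 and 13 in the same order, and a members' median of -0.51 to -0.32. These fits leave 1 residual degree of freedom and assume that the lone sample varies like the others. Without a pseudocount the log2 ratio of Spef2 was -4.93.

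With the replicate block from the labels 525 genes were lower and 70 higher, with 2 members and 3 other central apparatus genes (Mycbpap added) called lower. The correlation between the deviations of samples was -0.15 for the same number and 0.15 for crossed numbers. With 2 samples per genotype these values mirror each other by construction, so they cannot show whether same-numbered samples are related. The crossed block gave 266 lower and 28 higher with the same 2 members. Rfx2 was called under 13 of 17 alternatives. With 2 samples per genotype, a member that was not called was not shown to be unchanged, and low levels such as Spef2 in the mutants rest on few fragments.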
